A study of Mus musculus with 6 samples.

Results

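The mitochondrial ribosomal proteins examined here were the 79 rows of the deposited gene table, of 53110 in all, whose gene name begins with Mrpl or Mrps and a number. Names that carry the pseudogene mark -ps were left out, which removed 5 rows. There were 49 Mrpl rows, the proteins of the large subunit, and 30 Mrps rows, the proteins of the small subunit. A second identifier of Mrps23 (ENSMUSG00000098375) had no values, so 78 members had values. Mrps36 stayed under the filter of a mean of 10 normalized counts, at 4.14 in wild type (WT) and 3.97 in Setd5+/- cells, and 77 members were tested (49 Mrpl and 28 Mrps).

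Mitochondria translate the few proteins encoded by their own DNA on a ribosome of bacterial descent. Its 2 ribosomal RNAs come from the mitochondrial genome, whereas all its proteins are encoded in the nucleus, made in the cytosol and imported. Some of these proteins have a counterpart in the bacterial ribosome and others are found only in mitochondria. The products of mitochondrial translation are core subunits of the respiratory chain and of the ATP synthase, so that the mitoribosome links nuclear gene expression to oxidative phosphorylation (OXPHOS).

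RNA was sequenced from primary cortical neural stem cells (NSCs) of mouse, grown with bFGF and EGF at 21% O2, either WT or carrying 1 mutant copy of Setd5. The Setd5+/- cells were made with CRISPR-Cas9 and selected as clones, and the mutant columns carry the name of 1 clone. The labels give 3 samples per genotype, but the samples of a genotype differed by no more than sampling noise (chi-square of read pairs per degree of freedom 0.963 to 0.997 within a genotype, 40.2 to 40.4 between genotypes). The column names also carry 1 index and 1 lane mark per genotype. The samples were therefore counted as 1 library per genotype, and genotype, clone, library and lane cannot be told apart. Every p-value below compares the reads of those 2 libraries, not the genotypes, and intervals cover counting error only.

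The samples held between 7143309 and 10004948 reads on genes. Setd5 itself stood at 2498, 2749 and 2780 normalized counts in WT and at 2151, 1990 and 2055 in mutant cells (log2 fold change -0.37, 95% counting interval -0.44 to -0.31). All 10 NSC markers looked up reached 10 normalized counts in both genotypes. Their summed level was 77008 in WT and 62002 in Setd5+/- cells. Fabp7 alone, at 36015 and 11490, fell by more than this sum did, so the sum does not describe the other markers. Single markers differed in both directions, with log2 fold changes of -1.65 for Fabp7, -1.09 for Hes1 and 1.61 for Notch1. Vim, at 9095 and 13822, was also higher. None of 8 markers of microglia, vessel and mesenchymal cells reached that level (summed level 17.1 in WT and 13.5 in Setd5+/- cells, with Ptprc and Cx3cr1 listed at 0). Markers of other neural lineages also differed between the libraries. The summed level of 4 astrocyte markers was 795 in WT and 1334 in Setd5+/- cells, where Gfap (17.1 and 263), Aqp4 (57.7 and 187) and S100b (339 and 737) were higher and Aldh1l1 (380 and 147) was lower. Sox10, an oligodendrocyte lineage marker, was at 298 and 1.59. The summed level of 6 neuronal markers was 10495 and 12609, of which Map2 made up most, at 9983 and 12445, whereas Dcx was at 248 and 26.2. In such bulk samples fewer cells of a type and less RNA per cell cannot be told apart, and the part of these differences in the values below was not tested.

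Most mitochondrial ribosomal protein genes had lower transcript levels in Setd5+/- NSCs, with a small median shift and a spread of changes in both directions. The median log2 fold change over the 77 tested members was -0.26, which is 83.3% of the WT level, and the middle 50% of the members ran from -0.50 to -0.04, with extremes of -1.18 and 0.83. The median over all 16266 tested genes was -0.02. By sign alone 61 of the 77 members were below 0, against 51.1% of all tested genes. By the limma test with Benjamini-Hochberg adjustment over all genes, 42 members fell, 7 rose and 28 did not pass the threshold of 0.05. These are 54.5% and 9.09% of the tested members, whereas 30.9% of all tested genes were called lower and 30.3% higher.

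Few members changed by 1.5-fold or more. At least 1.5-fold lower were 11 members (14.3%), beside 15.5% of all tested genes, and at least 1.5-fold higher were 2 members (2.6%), beside 19.7%. The 3 WT values lay above all 3 Setd5+/- values for 45 members, where the share over all tested genes was 32.9%. The reverse held for 8 members, where that share was 32.4%. Summed over the 77 tested members, the level was 22192 normalized counts in WT and 19630 in Setd5+/- cells, a difference of 11.6%. The interquartile range of the log2 fold changes was 0.46 over the members and 0.72 over all genes of like level.

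**Figure D1:**
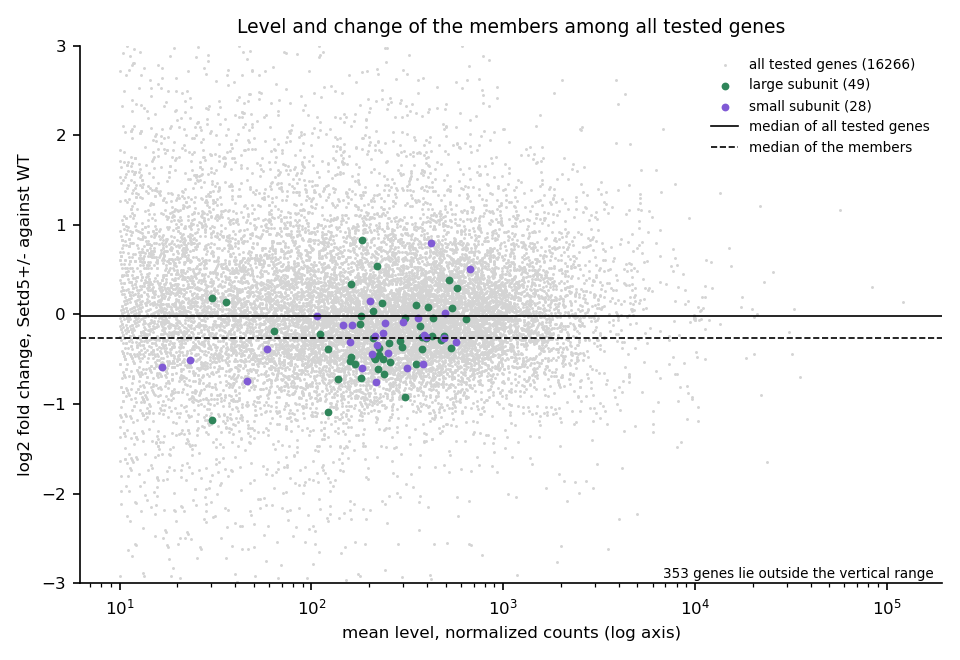
Mean level of each tested gene in normalized counts (log axis) against its log2 fold change in Setd5+/- relative to WT cells, with all tested genes in grey, the large subunit in green and the small subunit in purple. The dashed line marks the median of the members at -0.26 and the solid line the median of all genes at -0.02; members lie in a narrower band than genes of like level, and 353 genes fall outside the vertical range.

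The comparison of the 2 subunits showed almost the same shift. The median log2 fold change was -0.26 for the 49 Mrpl genes and -0.26 for the 28 Mrps genes, and the difference (Mrps minus Mrpl) was 0.007. Among the Mrpl genes 29 fell (59.2%), 5 rose (10.2%) and 15 did not pass the test. Among the Mrps genes 13 fell (46.4%), 2 rose (7.14%) and 13 did not pass. Over all tested genes 30.9% were called lower and 30.3% higher. The summed level of the large subunit was 14346 normalized counts in WT and 12520 in Setd5+/- cells, 12.7% lower. The summed level of the small subunit was 7846 and 7110, 9.38% lower. In the mammalian structure the products of Mrps18a and Mrps30 sit in the large subunit despite their names. With both genes moved there, the difference between the medians was -0.022, so the sign of this small difference changed with that choice.

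**Figure D2:**
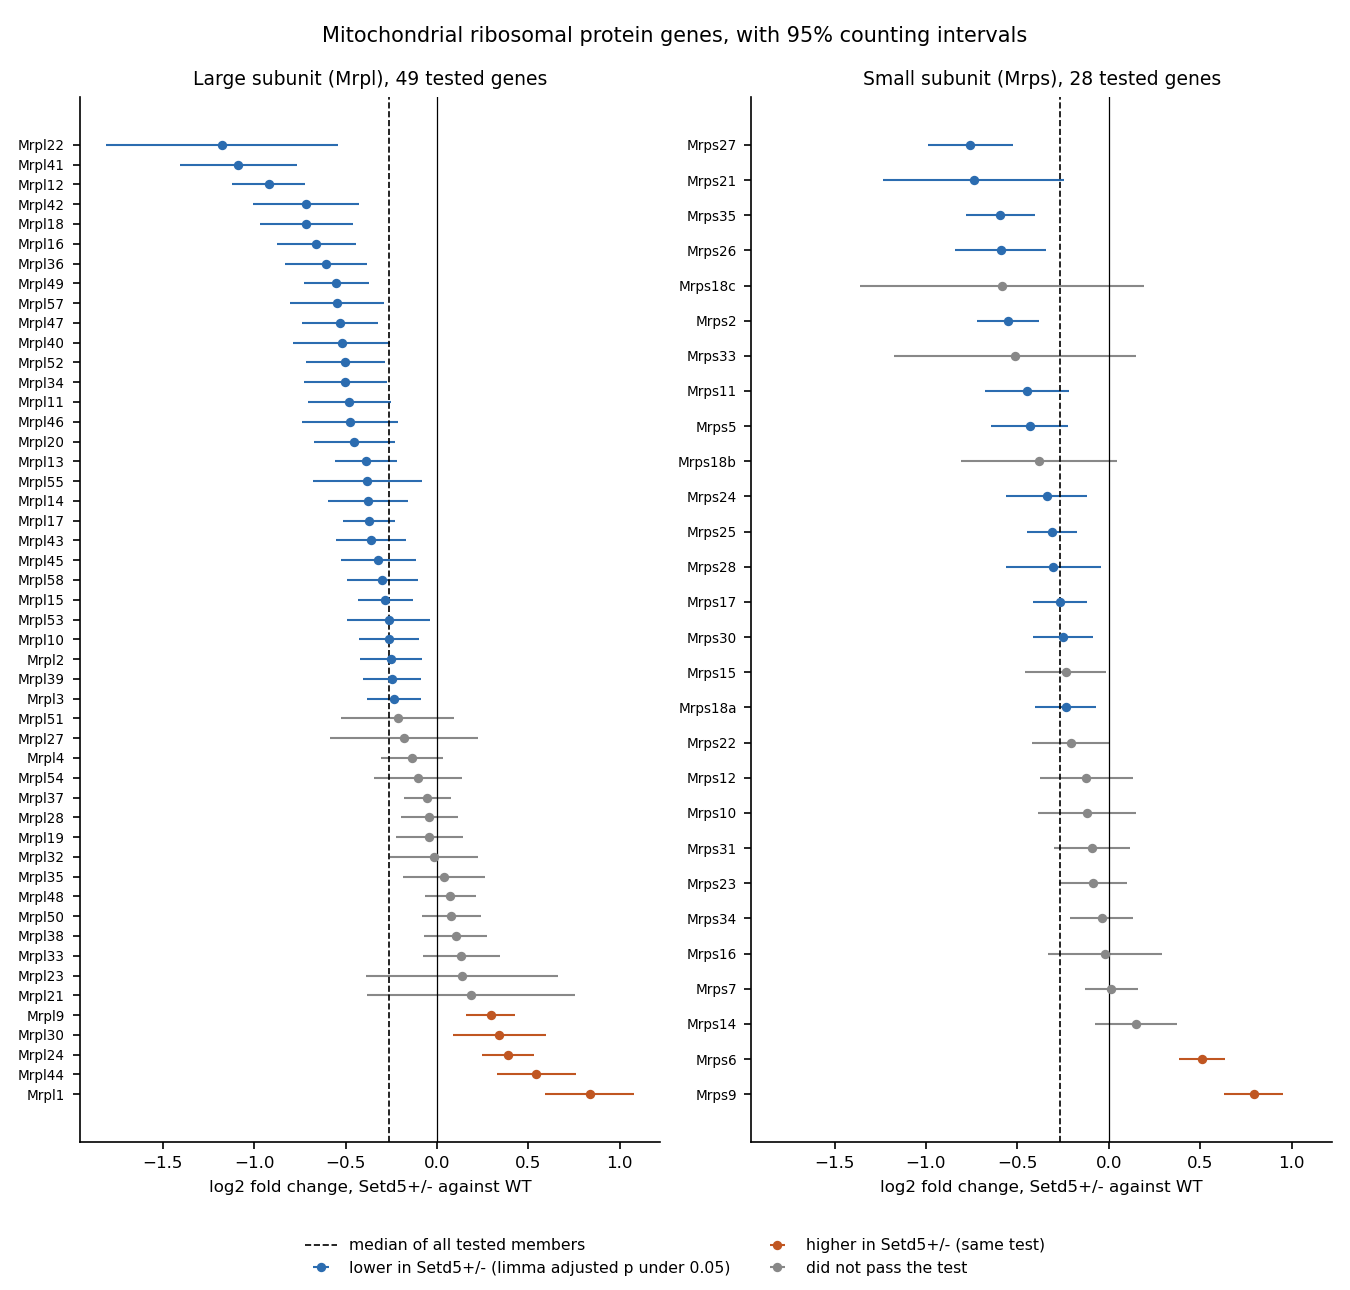
Log2 fold change of every tested member, Setd5+/- against WT, with 95% counting intervals, in the large (left, 49 genes) and small (right, 28 genes) subunit. Blue points were called lower, orange points higher and grey points neither by limma at an adjusted p of 0.05; both panels are centred near the dashed line, the median of -0.26.

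Members were then set against their own trend, the median of the 77. The 95% counting interval of 16 members lay wholly below -0.26, that of 19 members lay wholly above it, and that of 42 covered it. In the large subunit 12 genes were below, 14 above and 23 not separable from the trend, and in the small subunit 4 were below, 5 above and 19 not separable. The SD of the log2 fold changes over members was 0.37, whereas the median counting standard error of a member was 0.11. Members therefore differed from each other by more than counting error. When each member was set instead against the 500 genes nearest to it in mean level, whose medians ran from -0.12 to 0.14, 39 members were below, 8 above and 30 not separable.

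The 48 bacterial-type members and the 29 tested mitochondria-specific members had similar medians, at -0.26 and -0.30. Of the bacterial-type members 25 fell (52.1%) and 6 rose (12.5%), and of the mitochondria-specific members 17 fell (58.6%) and 1 rose (3.45%). Over all tested genes 30.9% were called lower and 30.3% higher. The difference between the kinds was not tested. Across the 77 members, Spearman's rho of the log2 fold change was 0.27 with mean level and 0.26 with exonic length. These values are a description of genes that share the same 2 libraries.

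Mrpl22 had the largest fall. It encodes a bacterial-type protein that lines the tunnel through which the nascent chain leaves the ribosome, and lies at chr11:58171661-58179565 (plus strand, GRCm38). It reached 43.1, 45.5 and 38.9 normalized counts in WT and 11.9, 22.6 and 20.3 in Setd5+/- cells. The genotypes did not overlap, and the log2 fold change was -1.18 (-1.81 to -0.54, limma adjusted p = 0.000804). Only 154 reads in WT and 46 in Setd5+/- cells stood behind these values, so the interval was wide.

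Mrpl41, a mitochondria-specific large subunit gene at chr2:24974117-24975098 on the minus strand, was at 172, 171 and 159 in WT and at 103, 78.6 and 53.6 in Setd5+/- cells. Every mutant value was below every WT value, and the mutant values were spread over a wider range. The log2 fold change was -1.09 (-1.41 to -0.77, limma adjusted p = 3.02e-06).

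Mrpl12 encodes the stalk protein of the large subunit, which is also known to bind the mitochondrial RNA polymerase. At chr11:120484613-120489065 (plus strand) it counted 399, 393 and 412 in WT and 205, 217 and 213 in Setd5+/- cells. The values within each genotype were close together and the mutant level was 52.7% of the WT level. The log2 fold change was -0.92 (-1.12 to -0.72, limma adjusted p = 6.59e-10). Gm16755 on the opposite strand shares 200 exonic bases with it and was at 240 in WT and 130 in Setd5+/- cells. The library kit named in the labels does not mark strand, so reads in that stretch cannot be told apart.

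In the small subunit the largest fall was that of Mrps27, which encodes a mitochondria-specific protein with pentatricopeptide repeats (chr13:99344786-99415562, plus strand). It was at 259, 281 and 280 in WT and at 150, 126 and 207 in Setd5+/- cells. The third mutant sample was the highest of its genotype but still below every WT sample. The log2 fold change was -0.76 (-0.99 to -0.53, limma adjusted p = 1.02e-05). On the opposite strand 6430562O15Rik shares 506 exonic bases with it and was at 67.1 in WT and 42.1 in Setd5+/- cells. Reads in that stretch cannot be told apart either.

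Mrps21 (chr3:95862634-95871519, minus strand), a bacterial-type small subunit gene, was at 58.9, 70.3 and 43.9 in WT and at 35.8, 39.3 and 27.4 in Setd5+/- cells. The lowest WT value and the highest mutant value nearly met. The log2 fold change was -0.74 (-1.23 to -0.25, limma adjusted p = 0.0107), and its interval still covered the member median. Mrpl42 (chr10:95480805-95501940, minus strand), a mitochondria-specific large subunit gene, was at 199, 148 and 168 in WT and at 79.9, 119 and 113 in Setd5+/- cells. Its groups did not overlap, and its log2 fold change was -0.72 (-1.01 to -0.43, limma adjusted p = 0.000205). Among the members that came next were Mrpl18 at -0.71, Mrpl16 at -0.66, Mrpl36 at -0.61, Mrps35 at -0.59 and Mrps26 at -0.59, all called lower.

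**Figure D3:**
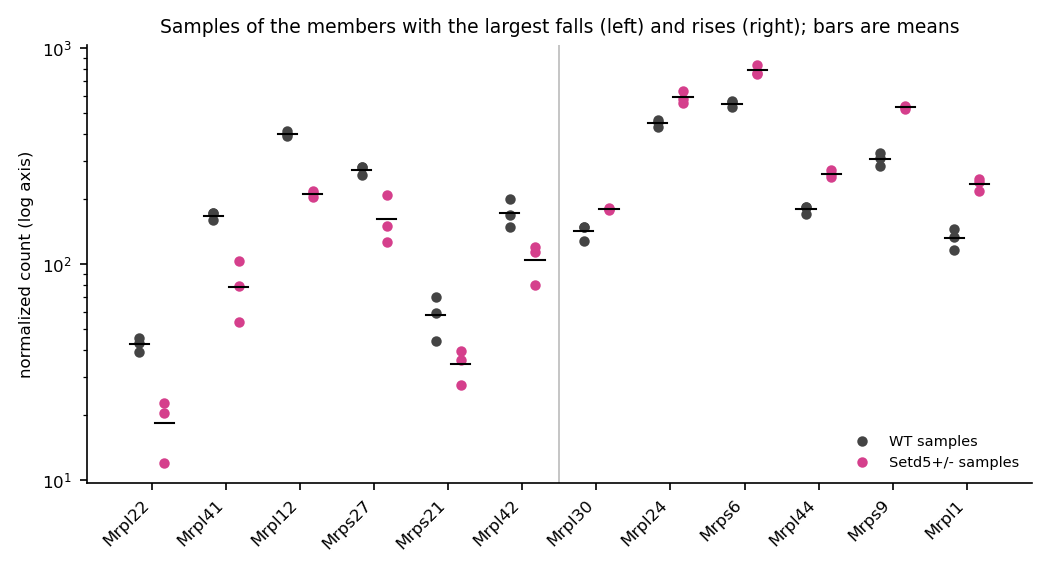
Normalized counts (log axis) in each sample of the 6 members with the largest falls and the 6 with the largest rises; black points are WT samples, pink points Setd5+/- samples and bars the means. The 3 samples of a genotype are parts of 1 library. The genotypes do not overlap for any of the 12 genes, which were picked for their fold changes in these same samples. Of all tested genes, 32.9% had all WT values above and 32.4% all Setd5+/- values above.

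The 7 members that rose were Mrpl1, Mrps9, Mrpl44, Mrps6, Mrpl24, Mrpl30 and Mrpl9. Mrpl1, which encodes the protein of the mobile L1 stalk next to the site where spent tRNA leaves, rose most. At chr5:96209493-96266727 (plus strand) it was at 115, 133 and 145 in WT and at 238, 248 and 218 in Setd5+/- cells. The mutant level was 179% of the WT level, with no overlap, and the log2 fold change was 0.83 (0.59 to 1.08, limma adjusted p = 9.42e-07).

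Mrps9 encodes a small subunit protein whose tail reaches the tRNA in the P site, and lies at chr1:42851233-42905683 on the plus strand. It was at 326, 309 and 285 in WT and at 534, 522 and 540 in Setd5+/- cells, a log2 fold change of 0.79 (0.63 to 0.95, limma adjusted p = 9.35e-10). All mutant values exceeded all WT values by a wide margin. Mrpl1 and Mrps9 were the 2 members at least 1.5-fold higher.

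Mrpl44, a mitochondria-specific large subunit gene whose product carries a ribonuclease III-like fold, was at 171, 183 and 184 in WT and at 272, 261 and 253 in Setd5+/- cells (chr1:79776018-79781445, plus strand). The groups were separate and the log2 fold change was 0.54 (0.33 to 0.76, limma adjusted p = 4.88e-05). It shares 126 exonic bases with Wdfy1 on the opposite strand, which was at 822 in WT and 921 in Setd5+/- cells.

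Mrps6, which encodes a platform protein of the small subunit, was at 569, 530 and 559 in WT and at 769, 761 and 830 in Setd5+/- cells (chr16:92058270-92112227, plus strand). The groups did not overlap and the log2 fold change was 0.51 (0.38 to 0.63, limma adjusted p = 4.79e-08). On the same strand it shares 159 exonic bases with Slc5a3, the sodium and myo-inositol cotransporter gene, which was at 955 in WT and 2555 in Setd5+/- cells, a log2 fold change of 1.42. How the counting divided reads of the shared exon was not tested.

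Mrpl24 (chr3:87919506-87923672, plus strand), which encodes a protein near the exit of the peptide tunnel, was at 430, 466 and 456 in WT and at 583, 556 and 634 in Setd5+/- cells. Its log2 fold change was 0.39 (0.25 to 0.53, limma adjusted p = 2.74e-05). Rrnad1 on the opposite strand shares 594 exonic bases with it and was at 424 in WT and 460 in Setd5+/- cells. Mrpl9, on the same chromosome and also of bacterial type, had a log2 fold change of 0.29 (0.16 to 0.43).

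Members on chromosome 1 departed from the group, as did that chromosome as a whole. The median log2 fold change was 0.53 over all 1044 tested genes of chromosome 1, and the medians of the other chromosomes that hold members ran from -0.15 to 0.02. Of the 5 members on chromosome 1, Mrps9, Mrpl44 and Mrpl30 rose, Mrps14 did not pass the test and Mrpl15 fell. Over all tested genes of chromosome 1, 63.2% were called higher and 9.67% lower. The median of the 5 was 0.34, and that of the 72 members elsewhere was -0.28. Among those 72, 41 fell and 4 rose. Over all tested genes off chromosome 1, 32.4% were called lower and 28.1% higher.

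Mrpl30 (chr1:37890477-37898535, plus strand) was at 148, 148 and 128 in WT and at 178, 179 and 182 in Setd5+/- cells, a log2 fold change of 0.34 (0.09 to 0.60, limma adjusted p = 0.0159). Mrps14 (chr1:160195215-160202170, plus strand) was at 204, 181 and 192 in WT and at 222, 207 and 212 in Setd5+/- cells. Its values were separated by a narrow gap, and the log2 fold change of 0.15 (-0.08 to 0.38) did not pass (limma adjusted p = 0.227). Mrpl15 (chr1:4773206-4785739, minus strand) was at 503, 523 and 529 in WT and at 429, 450 and 399 in Setd5+/- cells. It alone of the 5 was lower, with a log2 fold change of -0.28 (-0.43 to -0.13, limma adjusted p = 0.00131), close to the median of members elsewhere.

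**Figure D4:**
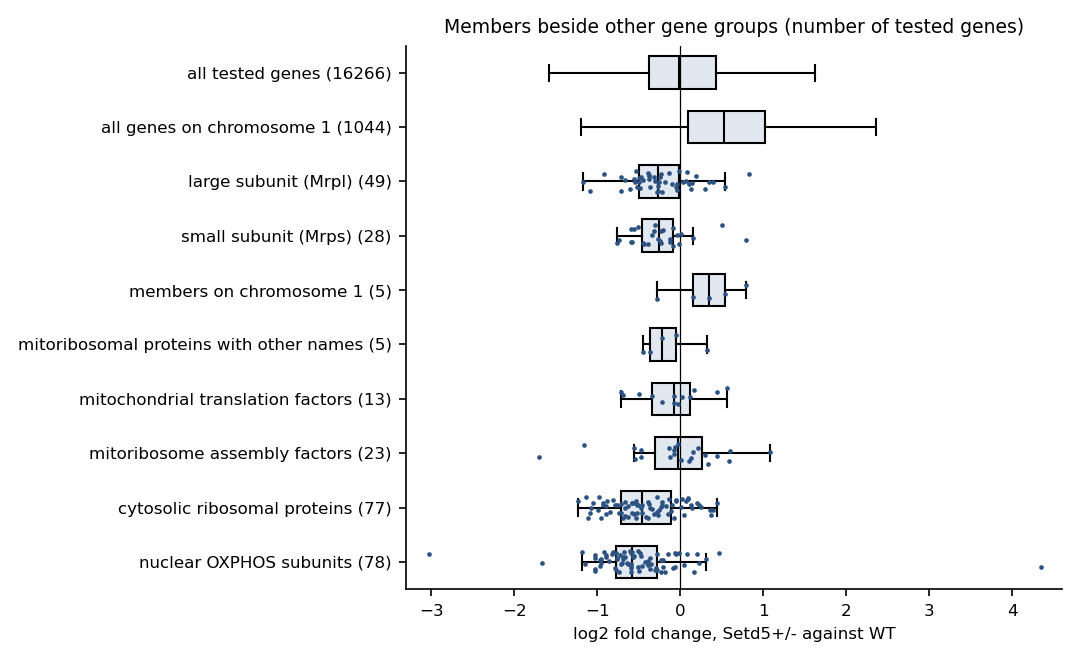
Log2 fold change, Setd5+/- against WT, for the members and other gene groups, with the number of tested genes in parentheses; boxes span the middle 50%, lines inside mark medians, whiskers reach the last value within 1.5 box lengths, and points are single genes for groups of under 200. The Mrpl and Mrps medians are both -0.26, members on chromosome 1 have a median of 0.34 beside 0.53 for that chromosome, and of the 10 groups plotted, which do not include the mitochondrial rRNAs, OXPHOS subunits have the lowest median at -0.58.

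The 3 paralogues of bacterial protein bS18 differed widely in level. Mrps18a was at 391, 438 and 419 in WT and at 359, 358 and 343 in Setd5+/- cells, without overlap, and fell by 0.23 on the log2 scale (interval of the log2 fold change -0.40 to -0.07, limma adjusted p = 0.0122). Mrps18b, whose groups overlapped at means of 66.5 and 50.8, had a log2 fold change of -0.38 (-0.81 to 0.04). Mrps18c had the lowest level on the gene alone, at means of 20.2 and 13.1, and a log2 fold change of -0.58 (-1.36 to 0.19). Neither of the latter passed the test (limma adjusted p = 0.101 and 0.142). Processed pseudogenes, described below, carried 125 and 114 for Mrps18c and 37.0 and 33.4 for Mrps18b in WT and Setd5+/- cells. The order of Mrps18b and Mrps18c by level is therefore uncertain. Mrps30, whose product sits in the large subunit, was at 406, 446 and 441 in WT and at 307, 386 and 395 in Setd5+/- cells and fell by 0.25 on the log2 scale (limma adjusted p = 0.0149).

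Levels of different genes were compared as normalized counts per kilobase of annotated exon. Highest in WT in the large subunit were Mrpl34 at 414, Mrpl2 at 349 and Mrpl28 at 316 per kilobase. Their log2 fold changes were -0.50 (-0.73 to -0.27) for Mrpl34, -0.25 (-0.42 to -0.08) for Mrpl2, whose product contacts the peptidyl transferase centre, and -0.04 (-0.20 to 0.11) for Mrpl28. The former pair fell, and Mrpl28 did not pass the test. Highest in the small subunit were Mrps6 at 361, Mrps7 at 238 and Mrps28 at 225 per kilobase. Mrps7, a head protein, had a log2 fold change of 0.01 (-0.13 to 0.16), and Mrps28 one of -0.30 (-0.56 to -0.04, limma adjusted p = 0.0392). The 26 members of lowest mean level had a median log2 fold change of -0.34, the next 26 of -0.37 and the 25 of highest level of -0.23.

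Many of these genes have processed pseudogenes, intronless copies elsewhere in the genome, that carried reads of their own. The reads were aligned with Bowtie2, which does not split a read across an intron, and the counting of reads that match several places is not given in the sources used here. A processed pseudogene with at least 90% identity over 200 bases or more was annotated for 26 members. In both genotypes 8 tested members had more counts on the copies than on the gene, and these were Mrpl21, Mrpl23, Mrpl27, Mrpl42, Mrpl51, Mrps18c, Mrps21 and Mrps33. Levels of these members are therefore uncertain.

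Counting gene and copies together left the member median at -0.26. The largest move was that of Mrps18c, from -0.58 to -0.19. Mrpl51 went from -0.21 to -0.53 and Mrpl27 from -0.18 to -0.41. For Mrpl12 the copy Gm15770 was at 255 in WT and 118 in Setd5+/- cells, and gene and copy counted together had a log2 fold change of -0.99 (-1.15 to -0.83). The sign changed for 3 members, Mrps16, Mrpl23 and Mrpl48, none of which had passed the test. The median log2 fold change was -0.38 over the 25 tested members with copies and -0.25 over the 52 without. Mrps36, the member under the filter, has 9 such copies. Its product is also known as a subunit of the 2-oxoglutarate dehydrogenase complex.

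**Figure D5:**
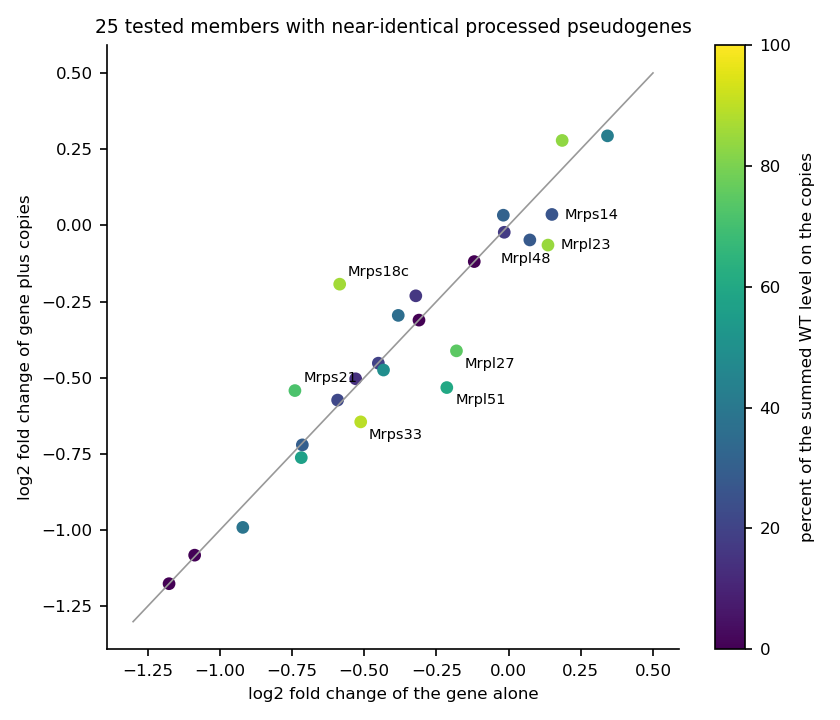
Log2 fold change of gene plus copies against that of the gene alone for the 25 tested members with near-identical processed pseudogenes; colour gives the percent of the summed WT level that lay on the copies and the grey line marks equality. Mrps18c moves most, from -0.58 to -0.19, and members moved by more than 0.1 are named.

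Promoter sequences of the members are described next by the letters they hold. RefSeq windows (GRCm38.p6) from 250 bases before to 50 after the start were found for 69 of the 78 members, 75 windows in all. Motifs known from promoters of nuclear genes for mitochondrial proteins were searched on both strands and none of their strings contains another. NRF1 was searched as GCGC, any base, TGCGC. ETS was searched as CCGGAAG, and YY1 as AA, any base, ATGGCG, any base, C. The NRF1 string was in 17.3% of member windows and 4.6% of all 32851 windows. The ETS string was in 34.7% of member windows and 8.86% of all windows, and the YY1 string in 10.7% and 1.51%. At least 1 of the 3 was in 52.0% of member windows and in 13.6% of all. All windows were counted whether or not their gene was tested here, and shares over tested genes alone were not taken. The 39 tested members with any of them had a median log2 fold change of -0.25, and the 29 tested members with windows and none of them one of -0.31. Single motifs differed in direction. The median was -0.32 over 13 members with the NRF1 string and -0.26 over 55 without. For ETS it was -0.33 over 26 with and -0.26 over 42 without. For YY1 it was -0.24 over 8 with and -0.29 over 60 without. These differences were not tested. A match describes the letters and is not a measured binding site.

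The stretches below lie wholly before the RefSeq start, in the direction of the gene, with the matched string or its reverse complement in capitals. They show the largest falls of each subunit that had a match, Mrpl34 as the member of highest level, 2 members that rose, and the head-to-head neighbours Mrps11 and Mrpl46. Those of Mrpl44, Mrpl30 and Mrps11 are shorter because they reach an annotated exon of the gene on the other side, Wdfy1, Mitd1 and Mrpl46.
Mrpl22, ETS, chr11:58171586-58171642, plus strand: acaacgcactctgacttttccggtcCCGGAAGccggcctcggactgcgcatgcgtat
Mrps27, ETS, chr13:99344713-99344769, plus strand: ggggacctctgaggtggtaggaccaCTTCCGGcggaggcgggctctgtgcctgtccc
Mrpl34, ETS, chr8:71464864-71464920, plus strand: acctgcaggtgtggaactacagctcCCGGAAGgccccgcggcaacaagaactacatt
Mrpl12, NRF1, chr11:120484531-120484590, plus strand: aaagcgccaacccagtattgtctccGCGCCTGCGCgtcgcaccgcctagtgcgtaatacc
Mrpl44, NRF1, chr1:79775974-79776001, plus strand: gaagcacttGCGCACGCGCagtacacta
Mrpl30, NRF1, chr1:37890385-37890412, plus strand: gacgccgctGCGCCTGCGCtgtcttcta
Mrps11, YY1, chr7:78783012-78783040, plus strand: cctacgggcGCCGCCATCTTtctgtcttc
The same NRF1 letters preceded Mrpl12, which fell, and Mrpl30, which rose. Mrpl30 lies on chromosome 1, where the median log2 fold change over all tested genes was 0.53. Whether the letters go with the changes was not tested.

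Mrps11 and Mrpl46 are read in opposite directions from overlapping 5′ ends and share 173 exonic bases. Mrps11 was at 272, 223 and 221 in WT and at 178, 188 and 160 in Setd5+/- cells, and Mrpl46 at 191, 194 and 177 in WT and at 148, 144 and 111 in Setd5+/- cells. Both fell without overlap of the groups, by 0.45 and 0.48 on the log2 scale. An exonic overlap of 100 bases or more with another annotated gene was found for 27 tested members, with a median log2 fold change of -0.26, the same as for the 50 without. The longest was that of Mrps25 with Nr2c2 on the opposite strand, over 4590 bases, where Mrps25 fell by 0.31 and Nr2c2 was at 724 in WT and 826 in Setd5+/- cells.

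Mitoribosomal proteins whose genes carry other names had a median log2 fold change of -0.22, near that of the members. Of 5 tested, Ptcd3, Chchd1 and Gadd45gip1 fell (60%), Dap3 rose (20%) and Aurkaip1 did not pass. Over all tested genes 30.9% were called lower and 30.3% higher. Chchd1, a small subunit protein gene, was at means of 383 in WT and 280 in Setd5+/- cells (log2 fold change -0.45, interval -0.63 to -0.27). Dap3, which encodes a GTP-binding protein of the small subunit, was at 774, 808 and 741 in WT and at 1000, 982 and 932 in Setd5+/- cells, without overlap (log2 fold change 0.33, interval 0.22 to 0.44).

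The genes that assemble and serve the mitoribosome had medians nearer to 0, though the difference was not tested. Of 13 translation factors 5 fell (38.5%) and 3 rose (23.1%), with a median of -0.08. Gfm1, the elongation factor that moves the ribosome along the message, fell most, from 675 to 411 (log2 fold change -0.71, interval -0.86 to -0.57). Mtrf1, a release factor gene, rose most, from 44.2 to 65.5 (log2 fold change 0.56, interval 0.13 to 0.99). Of 23 assembly factors 6 fell (26.1%) and 5 rose (21.7%), with a median of -0.03. Over all tested genes these shares were 30.9% and 30.3%, so both lists were near or below the background but for the share of translation factors that fell. Malsu1, whose product keeps the subunits from joining too early, was at 494, 593 and 576 in WT and at 153, 199 and 157 in Setd5+/- cells, a log2 fold change of -1.70 (-1.91 to -1.49). Mterf4, which acts on the large subunit and lies on chromosome 1, rose from 266 to 563 (log2 fold change 1.08, interval 0.91 to 1.24).

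The RNA parts of the ribosome were much lower in the Setd5+/- library. The 12S rRNA gene mt-Rnr1 was at 3581, 3489 and 3420 in WT and at 865, 816 and 792 in Setd5+/- cells, a log2 fold change of -2.08 (-2.18 to -1.99). The 16S rRNA gene mt-Rnr2 was at 6686, 6679 and 6697 in WT and at 1447, 1331 and 1341 in Setd5+/- cells, a log2 fold change of -2.28 (-2.35 to -2.21). The library kit selects polyadenylated RNA, which holds only part of these rRNAs, and the share captured in each library was not tested.

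Among other groups of nuclear genes, the 78 tested OXPHOS subunits had a median of -0.58, with 59 lower (75.6%) and 5 higher (6.41%). Their ends were Cox6b2 at -3.03 (means of 91.4 in WT and 10.3 in Setd5+/- cells) and Cox6a2 at 4.35 (2.21 and 64.3). Both were low in 1 genotype, and Cox6a2 passed the filter only through its Setd5+/- values. The 77 tested cytosolic ribosomal protein genes had a median of -0.46, with 38 lower (49.4%) and 3 higher (3.9%). Over all tested genes 30.9% were called lower and 30.3% higher. The cytosolic values ran from Rps6 at -1.23 to Rpl35 at 0.44. The mitochondrial ribosomal proteins lay between these groups and the median of all genes. The differences between the groups were not tested.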

How the data were processed

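RNA of mouse NSCs was sequenced by the authors with paired-end reads from TruSeq RNA v2 libraries. Per the labels, reads were trimmed with Trimmomatic, aligned to mm10 with Bowtie2 and normalized with DESeq2. The counting program and its strand setting are not given in the sources used here. The deposited table holds normalized counts per gene, in 6 sample columns that had lost their decimal points. It also holds the authors' comparison columns (mean, fold change, p-values), of which only the mean was used, to place the points. The points were restored from the whole-read steps of each column, and for all 52438 genes with values the restored mean equalled the deposited mean. For 1116 genes the mean was needed to choose. The table counts both ends of a pair, so counting intervals used a variance of 1.96 times the mean, as measured between parts of a library.

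Fold changes are log2((mean Setd5+/- + 1) / (mean WT + 1)), with a pseudocount of 1, which understates changes of low genes. The 16266 genes whose mean reached 10 normalized counts were tested with limma 3.58.1 (lmFit and eBayes with trend, two-sided) in R 4.3.3 on log2(normalized count + 1), and p-values were adjusted over these genes by Benjamini-Hochberg (threshold 0.05). The depth was 9995980 to 10004948 reads on genes per WT sample and 7143309 to 7146147 per Setd5+/- sample. The restoration and the test were checked on simulated data. Gene models were GENCODE M21 (GRCm38), processed pseudogenes were found with blastn 2.17.0, and promoters came from RefSeq. All 6 samples were used, grouped by genotype in the labels. Named genes were Setd5, the 6 largest falls and rises, the 3 highest per kilobase in each subunit, the Mrps18 paralogues, Mrps30, members on chromosome 1 or under the filter, the largest fall and rise of each other list, and further members as examples of counts. Nr2c2, Slc5a3, Wdfy1, Rrnad1, 6430562O15Rik, Gm16755 and Gm15770 were named for their overlap with or likeness to a member. The members and lists were chosen with earlier results of these data known. Alternatives were other pseudocounts, filters, scalings and trends, leaving out samples or members, a replicate block and pooled reads.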

Additional observations from a re-analysis of the deposited data

How the results depend on the processing

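Over 12 results, 152 of 181 alternative values kept their direction and stayed near the reported value, 25 moved and 4 changed sign. Scaling to total reads gave medians of -0.303 for all members, -0.303 for Mrpl and -0.296 for Mrps. Leaving out members on chromosome 1 gave -0.282 for all members, -0.284 for Mrps and a subunit difference of -0.003. With Mrps18a and Mrps30 counted as large subunit the difference was -0.022. A filter of 50 normalized counts gave a Mrps median of -0.236. Requiring 1.5-fold as well left 11 members lower and 2 higher, and 2373 and 2956 of all genes. Against the 500 nearest genes 39 members were below and 8 above the trend. Leaving out single samples gave medians from -0.286 to -0.261 for all members and from -0.284 to -0.232 for Mrps, and subunit differences from -0.008 (without Setd5+/- replicate 2) to 0.043, with -0.006 without WT replicate 3. Members called lower then numbered 36 to 41 and higher 6 to 7.

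Alternatives chosen after seeing the data were the median of all genes as trend (42 below, 7 above), members without pseudogene copies (median -0.25, Mrps -0.235) and members without exonic overlaps (Mrps -0.235, difference 0.054). The cause of these moves was not tested. Sample numbers did not pair the samples (correlations of same-numbered deviations 0.0049, 0.0015 and -0.0071), and the replicate block gave 42 members lower and 7 higher. With 1 library per genotype, no alternative reaches the spread between cultures or clones.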
